A study of Homo sapiens with 5 samples.

Results

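The p53 pathway genes described here are MDM2, MDM4, CDKN1A, BAX, BBC3, GADD45A, ATM, ATR and CHEK1, a named list of 9 among the 20163 protein-coding genes and 64449 annotated genes of the human genome. For each of them, PHF8 peaks lying within 1 kb of any annotated transcription start site (TSS) were collected and followed from TSS to TSS. All 9 genes had such a promoter peak in all 3 PHF8 ChIP-seq replicates, against 60.2% of protein-coding genes. A gene that meets this condition is called a target below.

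The data came from the SKMEL-147 line, established from human melanoma, in which chromatin was immunoprecipitated with an antibody against PHF8 and sequenced. There were 3 immunoprecipitated libraries, labelled A, B1 and B2, and 2 input libraries without antibody, labelled A and B. All 5 samples carried the same cell line label, with no treatment or genotype named (the series also speaks of an sgRNA model of PHF8 loss, but no ChIP sample is labelled as one), so there was 1 condition and no contrast between conditions. The labels did not say whether the replicates came from separate cultures, and B1 and B2 share a letter, so the spread between replicates may be partly technical. Peak lists hold no expression values, so the cell line could not be checked against marker genes.

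PHF8 is a Jumonji-type demethylase that removes methyl groups from histone lysines, and its PHD finger binds trimethylated lysine 4 of histone H3 at active promoters. The transcription factor p53 is held at a low level by the ubiquitin ligase MDM2 and its partner MDM4, is freed when kinases such as ATM, ATR and CHEK1 signal DNA damage or stalled replication, and then activates genes that stop the cell cycle or start cell death. MDM2 is itself one of those genes, so the pathway holds its own brake. In melanoma, p53 is often kept in check by its negative regulators rather than lost by mutation.

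Wherever 3 values follow each other below without another label, they are those of replicates A, B1 and B2 in that order. The 3 peak lists held 21506, 20882 and 20120 peaks. Read totals are unknown from these files, but the number of ChIP fragments stacked at each summit could be recovered from the listed fold enrichment and p-value. The median peak rested on 54, 39 and 40 fragments, and the median fold enrichment over the local background was 18.9, 11.8 and 11.8. Because A has a steeper scale than B1 and B2, the strongest promoter peak of a gene was also given as a percentile (0 to 100) among the 12139 protein-coding targets of the same replicate. The median target had a fold enrichment of 33.4, 19.4 and 18.4.

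By fold enrichment, MDM2 had the strongest promoter peak of the 9 genes. MDM2 (ENSG00000135679) lies at chr12:69201957-69239324 on the plus strand of hg19, the build used throughout. The fold enrichment of its peak was 51.4, 27.4 and 28.5. These values were above the target median in every replicate, and the mean percentile was 84.9 ± 4.30 (SD, n = 3). The summits rested on 131, 83 and 90 fragments, with 95% exact Poisson intervals of 110 to 155, 66.1 to 103 and 72.4 to 111. Such intervals cover counting error only. Ranked by fragments, the mean percentile of MDM2 was 76.3 ± 3.8 (SD, n = 3). The same ranking gave 96.0 for MDM4, 89.1 for ATR and 78.3 for BAX. The summits lay 140, 153 and 149 bp downstream of the canonical TSS, inside the untranslated first exon.

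MDM2 has a pair of well known promoters, a constitutive upstream one and a p53-responsive one inside the first intron. In the annotation, 6 TSSs clustered between 0 and +287 bp from the canonical TSS, and 6 more, the starts of 25 transcripts, between +825 and +1049 bp. All 12 were counted as bound in all replicates, since they lay within 1 kb of the same peak, but counted from the first TSS of the downstream cluster the summits stood at -685, -672 and -676 bp. The peak itself reached +939, +810 and +784 bp. It therefore overlapped the first downstream TSS in A and stopped short of it in B1 and B2. The 5 other MDM2 TSSs, between +5425 and +35512 bp, had no peak. The 80 bases in front of each promoter cluster are shown because their base composition differs sharply, with CpG dinucleotides in capitals (plus strand, 15 CpGs in the first and 2 in the second, at chr12:69201877-69201956 and chr12:69202702-69202781).
MDM2 upstream promoter: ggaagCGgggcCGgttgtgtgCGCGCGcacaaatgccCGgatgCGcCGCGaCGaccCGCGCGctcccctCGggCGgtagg
MDM2 intronic promoter: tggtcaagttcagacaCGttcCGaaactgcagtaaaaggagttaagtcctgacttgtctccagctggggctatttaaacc

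MDM4, the partner of MDM2 that binds and blocks the transactivation domain of p53, had the most fragments of the 9 genes but a middling fold enrichment. MDM4 (ENSG00000198625) lies at chr1:204485507-204527248 on the plus strand. Its fold enrichment was 38.9, 15.2 and 20.5, which is above the target median in A and B2 and below it in B1. The percentile was 64.3, 33.3 and 59.3, with a mean of 52.3 ± 16.6 (SD, n = 3). The summit rested on 172, 118 and 129 fragments, and ranked by fragments in place of fold enrichment MDM4 had a mean percentile of 96.0 ± 1.36 (SD, n = 3). The local background against which the peak was called was 3.45, 6.81 and 5.33 fragments, where 90% of targets had at most 2.68, 3.40 and 3.55. The part of this background in the fold enrichment of MDM4 was not tested. The summits lay 137, 135 and 181 bp downstream of the canonical TSS in intron 1. All 5 TSSs around the first exon were bound, and the 5 internal TSSs at +9084 bp and beyond had no peak.

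**Figure D1:**
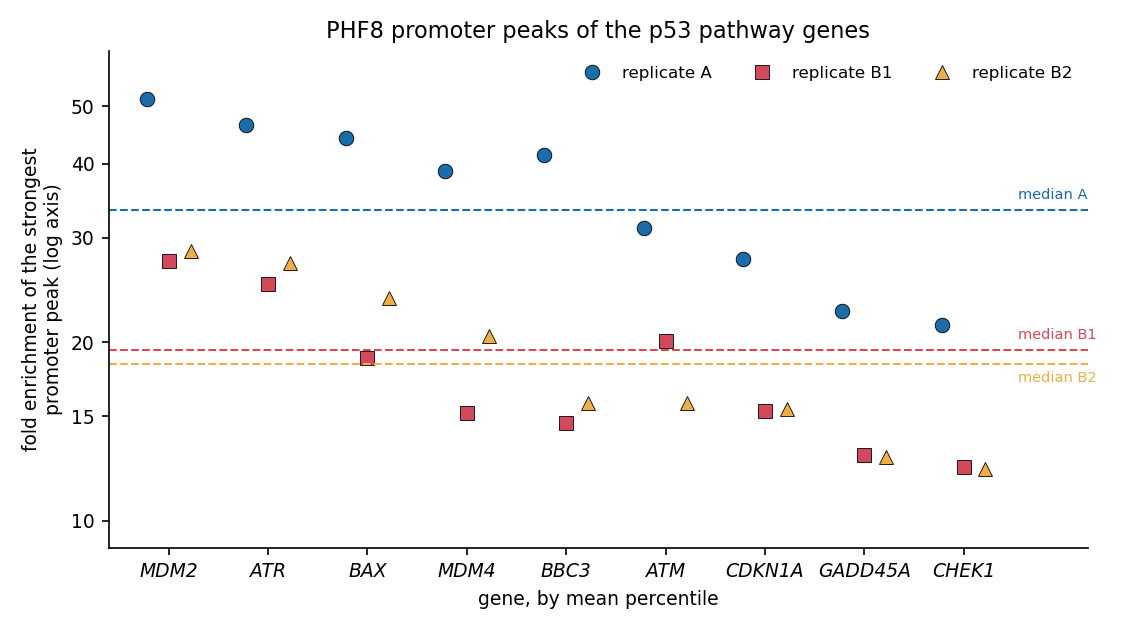
Fold enrichment over the local background (log axis) of the strongest PHF8 promoter peak of each gene in replicates A, B1 and B2. Dashed lines mark the median of the 12139 protein-coding targets of each replicate. MDM2 and ATR lay above the line of their own replicate in all 3, CDKN1A, GADD45A and CHEK1 lay below it in all 3, and the other 4 genes crossed it.

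CDKN1A, which encodes the cyclin-dependent kinase inhibitor p21 and is the classic arrest gene induced by p53, had a promoter peak weaker than the median target. CDKN1A (ENSG00000124762) lies at chr6:36644237-36655114 on the plus strand. The fold enrichment was 27.6, 15.3 and 15.4, and the percentile varied little, at 35.1 ± 1.69 (SD, n = 3). The summits lay 128, 124 and 109 bp downstream of the canonical TSS in intron 1. In A the peak was broad and ended at +1626 bp. In B1 and B2 the same stretch was called as a pair of peaks, the second with its summit at +1361 bp (fold enrichment 6.96) and +1321 bp (5.40). A small peak upstream of the canonical TSS, but inside the gene record, had its summit at -240 bp in A (8.67) and -257 bp in B1 (7.17). It lay 85 and 102 bp from the TSS of DINOL, a divergent non-coding RNA that is itself induced by p53. It was not called in B2.

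The PHF8 peaks of CDKN1A sat at 1 of its promoters and not at the other. The 5 TSSs between -4 and +57 bp were bound in every replicate, whereas the 3 TSSs between -2254 and -2186 bp, where the annotation starts 2 coding transcripts, had no peak in any. The nearest summit to the upstream cluster was 1946, 1929 and 2295 bp away. The sequence within 250 bp of each cluster's first TSS had a GC content of 72.3% and a ratio of observed to expected CpGs of 0.858 at the bound cluster, and 55.9% and 0.0767 at the other. The 80 bases in front of each cluster show the contrast (plus strand, CpGs in capitals, chr6:36644157-36644236 with 1 CpG and chr6:36646407-36646486 with 11).
CDKN1A upstream TSSs, no peak: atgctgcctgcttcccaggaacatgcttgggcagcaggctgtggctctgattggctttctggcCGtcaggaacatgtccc
CDKN1A canonical TSSs, bound: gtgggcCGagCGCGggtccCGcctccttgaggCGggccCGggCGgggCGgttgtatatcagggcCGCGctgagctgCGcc

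GADD45A, a stress protein that takes part in arrest at the G2 to M transition and in DNA repair, had a low fold enrichment and a percentile that varied little between replicates. GADD45A (ENSG00000116717) lies at chr1:68150884-68154017 on the plus strand. The fold enrichment was 22.6, 12.9 and 12.8, all below the target median, and the mean percentile was 24.2 ± 1.13 (SD, n = 3). The summits rested on 95, 60 and 62 fragments, close to the target medians of 97, 64 and 63. Ranked by fragments, the mean percentile was 47.2 ± 1.79 (SD, n = 3). The local background was 3.25, 3.72 and 3.94 fragments, where 90% of targets had at most 2.68, 3.40 and 3.55. Its part in the fold enrichment was not tested. The summits were at +155, +183 and +158 bp in the untranslated first exon. All 5 TSSs, from 0 to +475 bp, were bound. The peaks ran far into this short gene, to +1548 bp in A and +1544 bp in B1, and in B2 a chain of 3 peaks ended at +1535 bp. A weak upstream peak was called at -409 bp in A (fold enrichment 6.98) and -350 bp in B2 (3.98).

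BAX, which opens pores in the outer mitochondrial membrane during apoptosis, came next after MDM2 and ATR in rank by fold enrichment. BAX (ENSG00000087088) lies at chr19:49458072-49465055 on the plus strand. The fold enrichment was 44.1, 18.8 and 23.7, and the percentile was 76.0, 48.3 and 71.9, with a mean of 65.4 ± 14.9 (SD, n = 3). B1 was thus just below the target median, and the other replicates were above it. The summits lay at +147, +142 and +171 bp in intron 1. A second, weaker peak stood upstream in every replicate, with its summit at -287, -263 and -302 bp and a fold enrichment of 12.0, 7.04 and 8.35. All 6 TSSs of the gene were within 1 kb of these peaks.

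BBC3, which encodes the BH3-only protein PUMA that sets off apoptosis by neutralising BCL2 proteins, carried the most extended signal. BBC3 (ENSG00000105327) lies at chr19:47724079-47736023 on the minus strand, and its canonical TSS is internal to the gene record. Its strongest peak had a fold enrichment of 41.4, 14.6 and 15.8, and its percentile was 69.8, 30.8 and 39.2, the widest spread of the 9 genes (mean 46.6 ± 20.5, SD, n = 3). The strongest peak was not the same peak in each replicate. In A it was the promoter peak at +131 bp. In B1 and B2 it was a peak in intron 3, with its summit at +4829 and +4763 bp, while the promoter peak, at +120 and +113 bp, reached a fold enrichment of 14.4 and 15. The gap between those peaks in B1 (51 against 50 fragments) and in B2 (57 against 54) was smaller than the counting error. In A the intronic peak was at +4775 bp with a fold enrichment of 18.8. This intronic peak counted as a promoter peak only through the annotated TSS at +4010 bp, which starts no coding transcript.

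Around BBC3, there was a further peak over the coding exon 2 in every replicate, with its summit at +2988, +3005 and +3002 bp and a fold enrichment of 21.3, 7.32 and 9.28. A weaker peak in intron 2, near the annotated TSS at +4010 bp, had its summit at +3846 bp in A (7.34) and +3814 bp in B1 (4.99). In B2 it was not called separately, and the exon 2 peak ran to +3948 bp. The microRNA gene MIR3191, on the plus strand, starts inside this region at +4257 bp, and its TSS was 518, 572 and 506 bp from the summit of the intron 3 peak. The annotated TSS of 3 coding transcripts at -1567 bp had a nearby peak of low enrichment in A (9.51, summit at -1724 bp) and B1 (3.28, summit at -1720 bp), and no peak within 1 kb in B2.

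**Figure D2:**
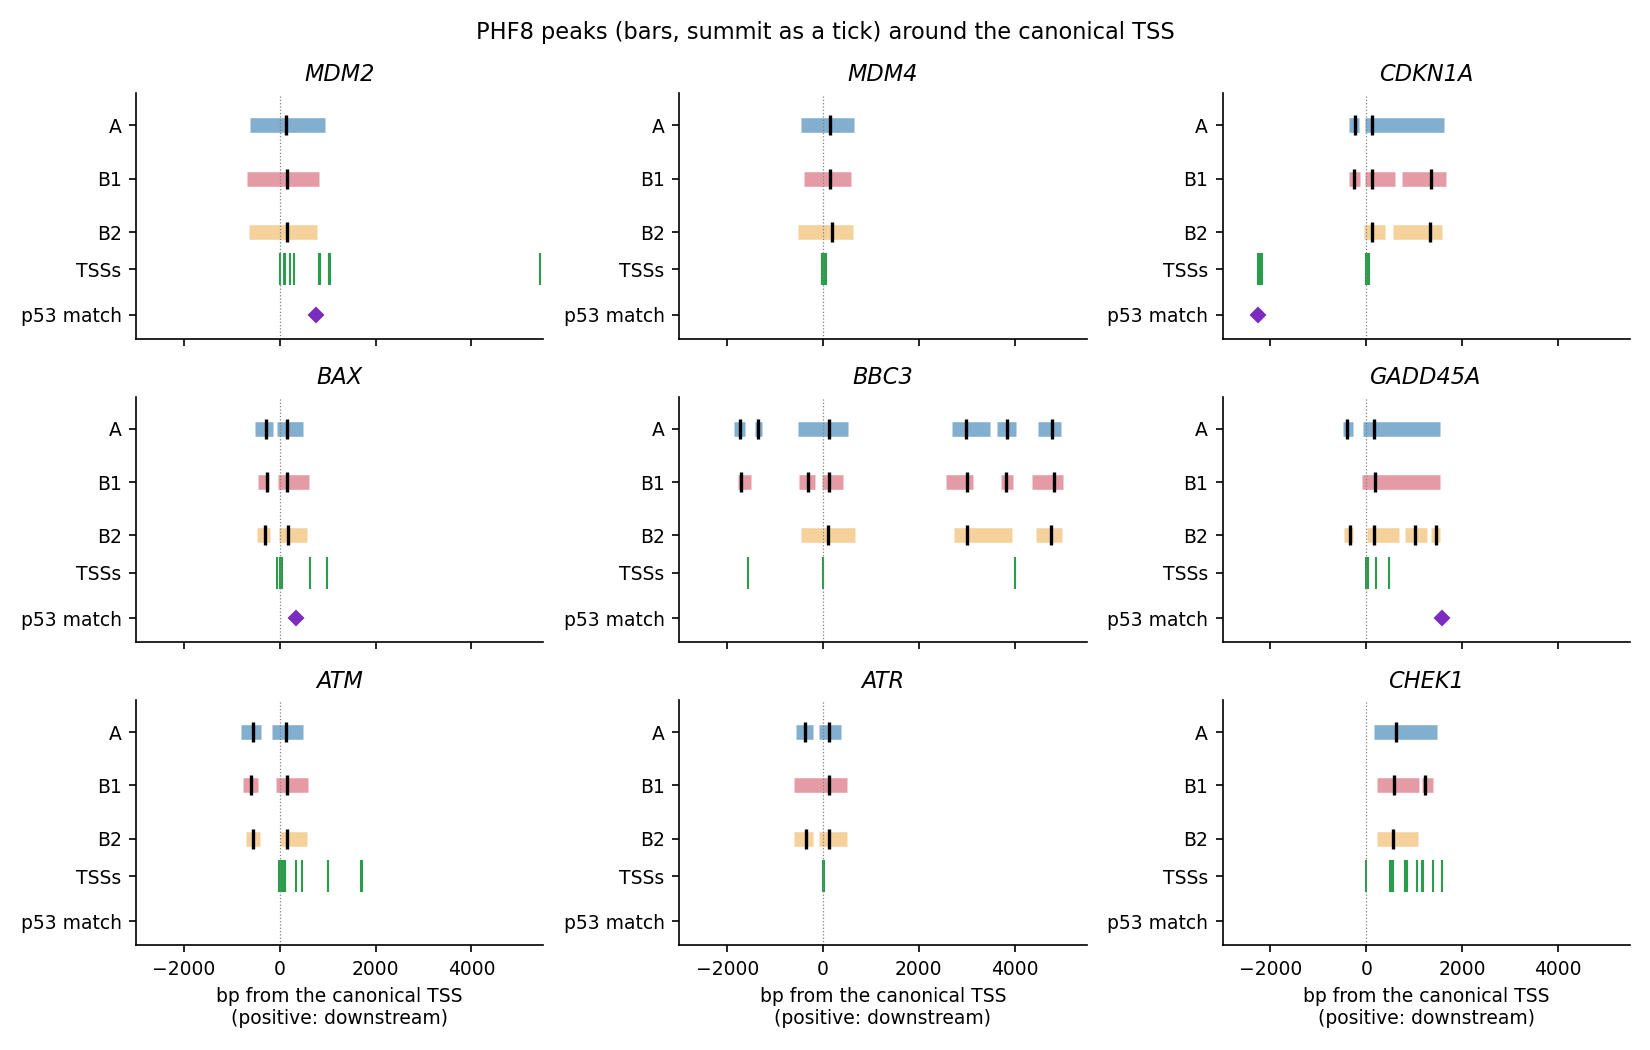
PHF8 peaks of the 9 genes in replicates A, B1 and B2 (bars, with each summit as a black tick), drawn from 3 kb upstream of the canonical TSS and read in the direction of transcription. Green ticks are annotated TSSs of the gene and purple diamonds are p53 consensus matches with at most 2 mismatches. In every gene but CHEK1 a summit stood between 109 and 183 bp downstream of the canonical TSS in each replicate, and at BBC3 the strongest peak in B1 and B2 was instead the one at +4829 and +4763 bp.

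ATM, the kinase that responds to DNA double-strand breaks, had a fold enrichment close to that of the median target but fewer fragments. ATM (ENSG00000149311) lies at chr11:108093771-108239829 on the plus strand. The fold enrichment was 31.2, 20.1 and 15.8, with a mean percentile of 45.5 ± 7.35 (SD, n = 3). The summits rested on 79, 58 and 47 fragments, below the target medians of 97, 64 and 63. Ranked by fragments, the mean percentile was 35.8 ± 6.4 (SD, n = 3). The summits were at +132, +142 and +160 bp in intron 1. A separate upstream peak at -553, -600 and -560 bp was nearly as strong, with a fold enrichment of 28.4, 15.3 and 11.2. It lay 102, 149 and 109 bp inside NPAT, a histone gene coactivator transcribed away from ATM, as measured from the NPAT TSS at -451 bp. The divergent pair thus had a PHF8 peak on the gene side of each TSS.

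ATR, the kinase that responds to stalled replication forks, was second to MDM2 in fold enrichment. ATR (ENSG00000175054) lies at chr3:142167849-142297575 on the minus strand. The fold enrichment was 46.5, 25.1 and 27.2, and the percentile was 80.5, 72.6 and 83.1, above the target median each time (mean 78.7 ± 5.51, SD, n = 3). The summits stood at +125, +134 and +128 bp in intron 1 and rested on 148, 100 and 113 fragments. An upstream peak at -374 bp in A (fold enrichment 32.3) and -366 bp in B2 (15.4) was merged with the main peak in B1, which ran from -613 to +494 bp. Of the 20 ATR TSSs, the 3 at the 5′ end were bound and the 17 internal ones were not.

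CHEK1, the checkpoint kinase activated by ATR, had the lowest values of the 9 genes. CHEK1 (ENSG00000149554) lies at chr11:125495058-125546150 on the plus strand. The fold enrichment was 21.4, 12.3 and 12.2, all below the target median, with a mean percentile of 21.8 ± 1.26 (SD, n = 3). The summits rested on 54, 35 and 36 fragments, with 95% exact Poisson intervals of 40.6 to 70.5, 24.4 to 48.7 and 25.2 to 49.8. CHEK1 had no summit within 500 bp of its canonical TSS, and its strongest summits lay 623, 578 and 563 bp downstream of it. They lay 60, 15 and 0 bp from the nearest TSS of the next cluster, whose 14 TSSs between +502 and +1586 bp start 15 of the transcripts. A non-coding RNA gene on the other strand (ENSG00000288907) starts at +750 bp, 127, 172 and 187 bp from the summits.

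**Figure D3:**
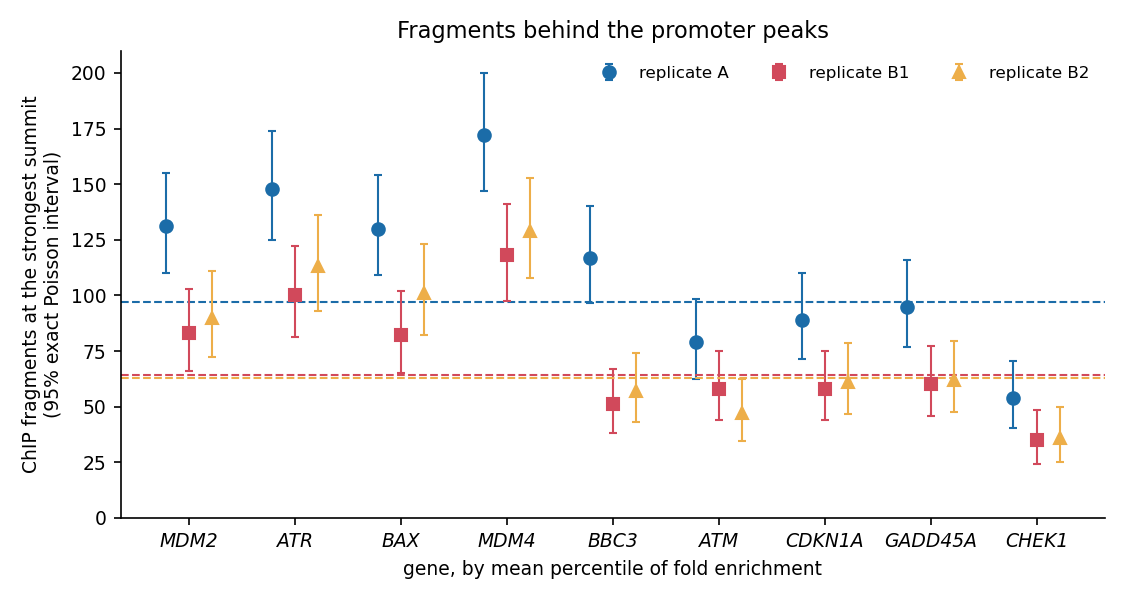
ChIP fragments at the summit of the strongest promoter peak of each gene in replicates A, B1 and B2, with 95% exact Poisson intervals and dashed lines at the median of the protein-coding targets of each replicate (97, 64 and 63). MDM4 had the most fragments (172, 118 and 129) and CHEK1 the fewest (54, 35 and 36).

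By mean percentile the order was MDM2, ATR, BAX, MDM4, BBC3, ATM, CDKN1A, GADD45A and CHEK1. The median over the 9 genes was 64.3, 33.5 and 39.2 (mean 45.7 ± 16.4, SD, n = 3), near the middle of the targets. Neighbours in the order were compared within replicates by an exact permutation test that flips the sign of each difference (two-sided), for which 3 replicates give a smallest p of 0.25, so no pair could pass a threshold of 0.05. The pairs and their direction were taken from the same percentiles, so every mean difference was positive from the start and the p-values lend the order no support. In 6 of the 8 neighbour pairs the order was the same in all 3 replicates (exact p = 0.25, Benjamini-Hochberg adjusted over the 8 pairs 0.3333). CDKN1A exceeded GADD45A by 10.9 ± 0.737 percentile points and BAX exceeded MDM4 by 13.1 ± 1.71 points (SD, n = 3). The gaps from MDM4 to BBC3 (5.70 ± 13.1 points) and from BBC3 to ATM (1.07 ± 23.9 points) were smaller than their spread and had the same sign in 2 of 3 replicates (exact p = 0.75, adjusted 0.75).

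The summits stood at similar distances from the canonical TSS in most of the genes. In 8 of the 9 genes the strongest summit lay within 1 kb of the canonical TSS in every replicate, BBC3 being the exception. In all 8 of these it was downstream in every replicate, against 65.7% of the 10778 protein-coding targets measured in the same way. In 7 of the 8 it was 100 to 200 bp downstream in every replicate, against 44.4% of those targets. The median position over the 9 genes was 137, 142 and 160 bp (mean 146 ± 12.1 bp, SD, n = 3). More than 1 separate promoter peak in every replicate was found at 4 of the 9 genes (CDKN1A, BAX, BBC3 and ATM), against 31.9% of protein-coding targets, a share not far from theirs. The number depends on where the caller split or merged a signal, as at ATR.

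The 9 genes have 127 distinct annotated TSSs, and 68 of them (53.5%) lay within 1 kb of a peak in all 3 replicates, against 44.7% of the TSSs of all protein-coding genes. TSSs that share a peak are not independent observations. The shares over all protein-coding genes given here for TSSs include genes that are not targets, none of whose TSSs can count as bound. All 9 genes are targets, so the shares are not like for like, and shares over targets alone were not computed. The share ran from 3 of 20 at ATR and 15 of 42 at ATM to all 6 at BAX, all 5 at GADD45A and all 15 at CHEK1, with 12 of 17 at MDM2, 5 of 10 at MDM4, 5 of 8 at CDKN1A and 2 of 4 at BBC3. Among the TSSs of coding transcripts alone, 43 of 52 (82.7%) were bound, against 53.9% over all protein-coding genes. The 9 coding TSSs without a peak in all replicates were 4 of MDM4, 2 of CDKN1A, 2 of ATM and 1 of BBC3.

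Merging TSSs at most 500 bp apart gave 58 TSS groups, of which 14 were bound in all replicates (against 23.5% of the TSS groups of all protein-coding genes), 1 (the upstream TSS of BBC3) in A and B1, and 43 in none. All 10 groups with a CpG ratio, observed to expected, of at least 0.6 in the 250 bp on either side were bound, against 73.0% of such groups over all protein-coding genes. Of the 48 groups below 0.6, 4 were bound, against 6.10% of such groups, so a split in the same direction was present over all protein-coding genes. The shares for TSS groups likewise include genes that are not targets. The bound groups had ratios from 0.243 to 0.964 (median 0.76) and a median GC content of 64.1%, and the groups without a peak had ratios from 0 to 0.389 (median 0.197) and a median GC content of 34.9%. The 4 bound groups of low ratio were the second groups of BAX and ATM, the third of BBC3 and the canonical TSS of CHEK1. Those of BAX, ATM and CHEK1 lay within 1 kb of a peak belonging to another group. The BBC3 group, a TSS at +4010 bp, had a weak peak of its own in A and B1. The summit of that peak was 164 and 196 bp upstream of this TSS. In B2 the exon 2 peak reached to +3948 bp. The stronger exon 2 and intron 3 peaks also lay within 1 kb of this TSS in every replicate. The best fold enrichment within 1 kb of it was thus 21.3, 14.6 and 15.8.

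At the canonical TSS, 8 of the 9 genes had a CpG-island-like sequence (GC of at least 50% and a CpG ratio of at least 0.6). Of all protein-coding genes with such a promoter, 81.0% were targets, and of those with another promoter, 17.9%. CHEK1 was the exception, with a GC content of 45.7% and a ratio of 0.545. The group of 14 TSSs downstream of it, where its summits lay, had a GC content of 64.1% and a ratio of 0.828.

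**Figure D4:**
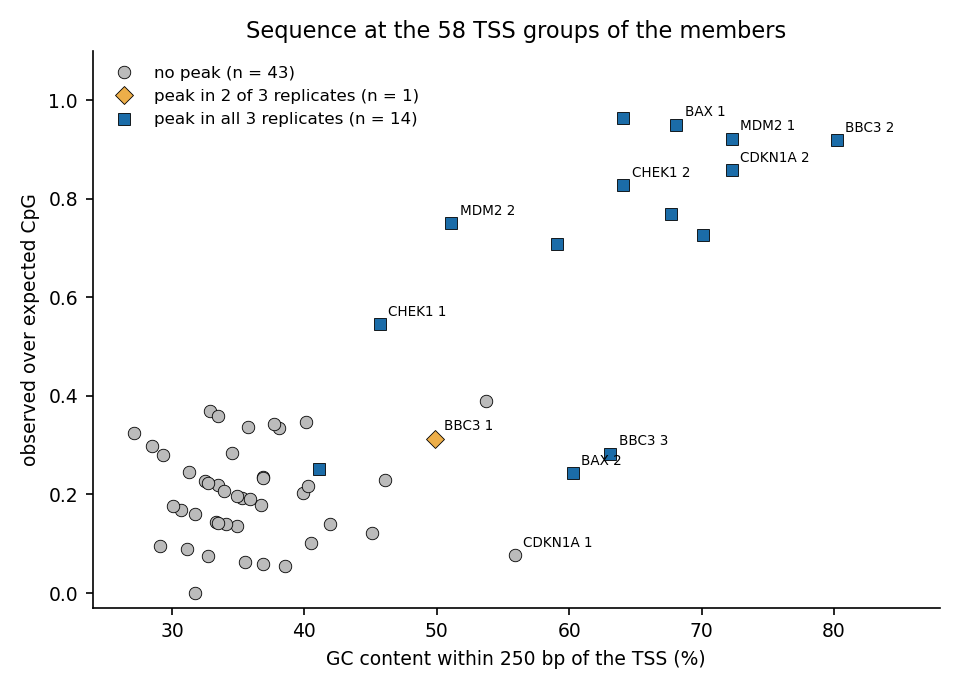
GC content and ratio of observed to expected CpGs in the 250 bp on either side of the first TSS of each of the 58 TSS groups, coloured by whether a PHF8 peak lay within 1 kb. The 14 groups bound in all 3 replicates had a median ratio of 0.76 and the 43 groups without a peak one of 0.197, with CDKN1A group 1 among the latter at 0.0767.

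p53 itself binds a response element made of a pair of abutting decamers with a C and a G in each core. A search for the p53 consensus with at most 2 mismatches of 20 bases and the C and G of each core exact found 9 matches in the genes and the 5 kb around them, 1 at each gene. The stretches searched differ widely in length, and no share over all protein-coding genes was computed for such stretches. The count of 1 per gene is therefore not read as a trait of these genes. The consensus is a palindrome, so a single pass reads both strands. Of all protein-coding promoters, 1.37% had such a match within 1 kb of the canonical TSS, and among the 9 genes MDM2 and BAX did. A match is a description of the letters and does not show that p53 binds there. The matches of MDM2, MDM4, BAX, CDKN1A and GADD45A, the negative regulators and those genes induced by p53 whose match is in or upstream of the gene, are shown on the gene strand with the 4 core bases of each decamer in capitals, and the position given is that of the centre of the match. Their places are MDM2 (chr12:69202703-69202722, intron 1), BAX (chr19:49458470-49458489, intron 1), CDKN1A (chr6:36644226-36644245, upstream), GADD45A (chr1:68152458-68152477, intron 3) and MDM4 (chr1:204494174-204494193, intron 1), all on the plus strand.
MDM2, +755 bp: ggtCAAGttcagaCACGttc
BAX, +347 bp: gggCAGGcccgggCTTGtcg
CDKN1A, -2256 bp: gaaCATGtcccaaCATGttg
GADD45A, +1583 bp: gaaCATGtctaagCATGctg
MDM4, +8649 bp: agaCATGttccaaCATGttg

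Of the 9 matches, 2 fell inside a PHF8 peak, those of MDM2 and BAX, and they did so in all 3 replicates. The MDM2 match lay 615, 602 and 606 bp downstream of the summit, within the 80 bases printed above for the intronic promoter. The BAX match was closer to its summit, at 200, 205 and 176 bp. The CDKN1A match, which overlaps the first of the upstream TSSs of that gene, was 2016, 1999 and 2365 bp from the nearest summit and in no peak. At GADD45A the match, which has 1 mismatch and is centred at +1583 bp, lay just beyond the ends of the peaks at +1548, +1544 and +1535 bp. The other matches, at +8649 bp of MDM4, +13019 bp of BBC3, +9946 bp of ATM, +54242 bp of ATR and -4794 bp of CHEK1, were in no peak, with the nearest summit over 5 kb away.

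Beyond the 9 genes, 53 further genes of the p53 pathway were examined, and 47 of them (88.7%) were targets, against 60.2% of protein-coding genes. By role, the targets were 12 of 12 damage signalling genes, 7 of 9 p53 family members and regulators, 6 of 9 arrest genes, 13 of 14 death genes and 9 of 9 repair and metabolism genes. The 6 genes that were not targets were the p53 relatives TP63 and TP73, the arrest genes SFN, GADD45G and RPRM, and the apoptosis gene TP53AIP1. Of these, only TP73 had a promoter peak in any replicate (A, fold enrichment 7.79). Of the 46 genes with a CpG-island-like promoter 43 were targets, and of the 7 others 4 were, which may be set beside the 81.0% and 17.9% given above.

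Among these targets, the median percentile was 75.4 for repair and metabolism genes (range 54.1 to 90.7) and 67.8 for the p53 family and regulators (43.4 to 86.9). It was 61.5 for arrest genes (9.77 to 94.1), 45.2 for death genes (6.79 to 84.2) and 33.8 for damage signalling genes (14.5 to 89.3), so the ranges of all roles overlapped. The 3 highest were ZMAT3, a p53-induced RNA-binding protein (94.1 ± 1.68), XPC, which recognises damage for nucleotide excision repair (90.7 ± 6.91), and ATRIP, the partner of ATR (89.3 ± 16.4, SD, n = 3). The 3 lowest were the death receptor gene FAS (6.79 ± 0.891), the polo-like kinase gene PLK2 (9.77 ± 6.51) and CDC25A, a phosphatase that activates cyclin-dependent kinases (14.5 ± 3.24). ATRIP and ATR, whose proteins form 1 complex, had mean percentiles of 89.3 and 78.7, and CHEK1, which they activate, one of 21.8. These genes were picked by function. The 12 damage signalling genes of the wider list ran from 14.5 to 89.3, so no pattern is read from the picked genes.

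**Figure D5:**
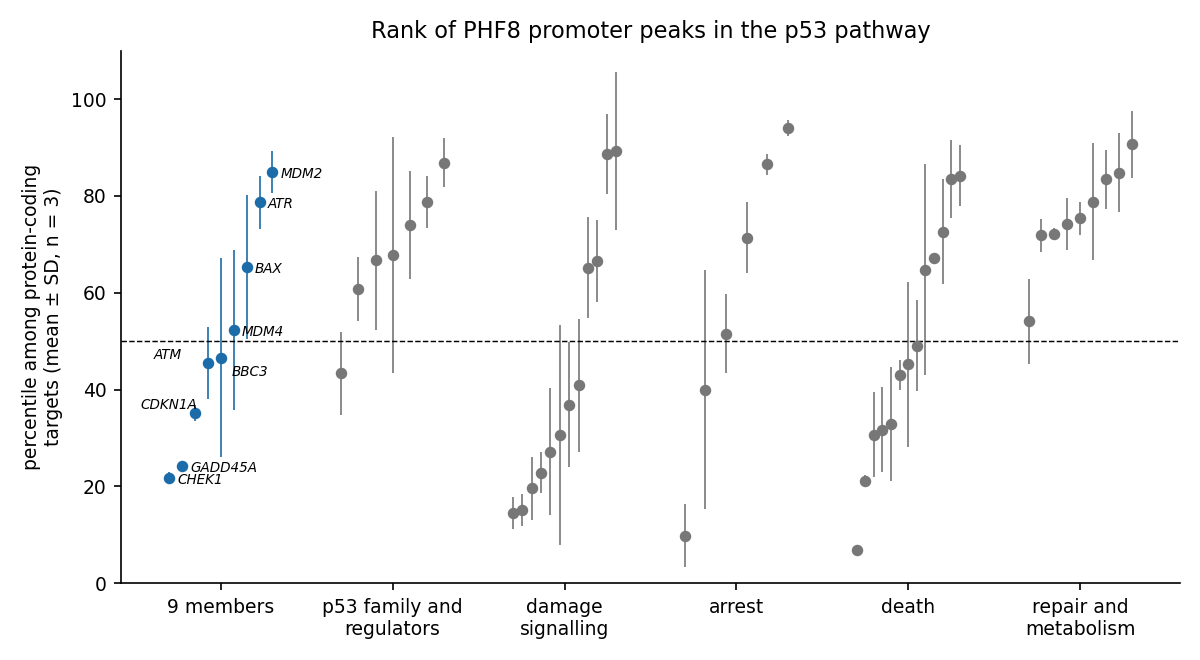
Percentile of the strongest PHF8 promoter peak among protein-coding targets (mean ± SD over 3 replicates, each point a gene) for the 9 genes, by name, and for the 47 targets of the wider list by role, with a dashed line at 50. The 9 genes ran from 21.8 (CHEK1) to 84.9 (MDM2), and every role overlapped that range.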

How the data were processed

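PHF8 ChIP-seq of SKMEL-147 cells was examined from 3 peak lists, A, B1 and B2. Files of the 2 inputs were not analysed here. Reads had been aligned by the authors with Bowtie2 to hg19 (GRCh37), per the labels, and they called narrow peaks against input with MACS, separately for each replicate. The submitters' processing notes also name bcl2fastq and Picard. The study also names it MACS2. Its release, the handling of duplicates and the read totals are not given in the sources used here, and the library kit differs between the labels and the methods. The deposited values are a score, the fold enrichment (a linear ratio over the local background), −log10 p, −log10 q and the summit offset. The score was not used. Every deposited peak passed 1.5 in fold enrichment and 0.05 in q, the stated cutoff being read as q below 0.05.

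Fragments at each summit (n) and the local background (b) were solved from the deposited fold enrichment, taken as (n + 1)/(b + 1), and the −log10 p of a Poisson test. All peaks gave whole numbers (100%, relative tolerance 0.001), and the recovery was tested on simulated data. TSSs came from GENCODE 44 lifted to GRCh37, where all 62 symbols matched. A peak was assigned where it overlapped by at least 1 bp the 1 kb on either side of a TSS. The canonical TSS was that of the Ensembl canonical transcript, or the 5′ end of the gene record for 282 protein-coding genes (FAS among those named). Sequence came from the GRCh37 genome. Python 3.11.15, pandas 2.3.3, NumPy 2.4.6, SciPy 1.17.1, pysam 0.24.0 and statsmodels 0.14.6 were used.

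The 9 genes, the wider list and the tests were chosen with earlier results of these data known. All 9 genes are named, together with every non-target and the 3 highest and 3 lowest targets of the wider list, and every gene with a TSS within 1 kb of a promoter peak of the 9. Alternatives covered the peak cutoffs, the window, the TSS set, the replicates, the measure, the CpG window and the mismatches.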

Additional observations from a re-analysis of the deposited data

How the results depend on the processing

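All 9 genes remained targets with q below 0.001, fold enrichment above 4 or above 10, windows of 500 bp or 2 kb, summits inside the window, the canonical TSS alone, 2 of 3 replicates and any replicate left out. With a fold enrichment above 20 in all replicates, 2 remained (MDM2 and ATR, against 23.8% of protein-coding genes), and of the wider list 23. With the 5′ end of the gene record as the only TSS, 7 remained (54.0% of protein-coding genes), CDKN1A and BBC3 being lost because that end is their upstream TSS. The share of TSSs bound was 51.2% in a 500 bp window, 55.9% in 2 kb, 82.7% for coding transcripts, 54.3% for 2 of 3 replicates, and 53.5% to 54.3% without 1 replicate. The median summit position was 185 bp from the gene record's 5′ end. The matches to the p53 consensus numbered 43 with 3 mismatches and 2 with 1. The median percentile was 36.4 to 52.1 without 1 replicate, and 53.4 by fragments, where MDM4 came first. No paired analysis was possible because the ChIP and input groups share 1 replicate label and the inputs have no file analysed here. Precision is limited by 3 replicates and by 35 to 172 fragments at the strongest summits, and read totals are unknown.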

Other observations

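BAX and ATR had further peaks in or near the gene that lay outside the 1 kb windows. Downstream of BAX, a peak had its summit 10555, 10565 and 10548 bp from the BAX canonical TSS in the 3 replicates. It was enriched 33.1, 21.7 and 22.8 times over the local background. Its summit was 121, 131 and 114 bp from the nearest TSS, that of FTL, the ferritin light chain gene. Past the 3′ end of ATR, a peak at 130462, 130475 and 130474 bp from the ATR canonical TSS had a fold enrichment of 29.2, 18.1 and 18.3, and was 209, 196 and 197 bp from the nearest TSS, that of XRN1, an exoribonuclease gene. In B1 the FTL peak exceeded the promoter peak of BAX itself (21.7 against 18.8), and in A and B2 it did not. These neighbours were named after their values were seen.

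With 3 mismatches allowed, the p53 consensus search found 2 further matches inside promoter peaks of the death genes, with the 4 core bases of each decamer in capitals. Positions are those of the centre of the match. They are shown because they sit within 500 bp upstream of the canonical TSS, at chr19:49457712-49457731 (plus strand, BAX) and chr19:47734577-47734596 (minus strand, BBC3).
BAX, -411 bp: agaCAAGcctgggCGTGggc
BBC3, -130 bp: ctgCAAGtcctgaCTTGtcc
The BAX match was inside the upstream BAX peak in all 3 replicates, 124, 148 and 109 bp from its summit. The BBC3 match was inside a peak in A and B2, and in B1 it fell between a pair of separate peaks. At this looser setting 7.34% of protein-coding promoters had a match within 1 kb of the canonical TSS, and 5 of the 9 genes did. The matches of GADD45A at -808 bp and ATR at +908 bp were in no peak.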
